A study of Saccharomyces cerevisiae with 88 samples.

Results

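Pol II was measured here with and without rapamycin in libraries labelled as an anchor-away strain whose Nab3 carries no FRB tag. The comparison was chosen by its labels: Pol II CRAC (cross-linking of RNA to the HTP-tagged largest subunit, Rpo21) with rapamycin against no rapamycin, at 0 min in glucose medium and 14 min after a shift to medium without glucose. It rests on 4 of the 88 samples of the series, 1 library per treatment and time. Of the 12454 annotated features, 6526 had at least 20 reads summed over the 2 libraries of each time and were compared. The study used such cells as a control for the drug. It reported no noticeable effect of rapamycin on the Pol II profiles along genes it had newly tied to Nab3. The ratios given here are of whole features, so they do not measure how Pol II lies along a gene.

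All 4 libraries carry the genotype label HHY168, MATalpha, tor1-1, fpr1::NAT and PMA1-2xFKBP12::TRP, so by the labels both treatments share the drug-resistant TOR1 allele, the deletion of FPR1 and the anchor. The reads on FPR1 and on mating type genes, given below, go against that label. The Nab3-FRB libraries set beside them carry RPL13A-2xFKBP12::TRP instead. By the protocol, cells were given 1 µg/ml rapamycin 1 h before the shift. The labels do not say whether the 0 and 14 min libraries of a treatment came from 1 culture, and nothing says that they came from separate ones.

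Rapamycin binds the prolyl isomerase Fpr1, and this complex inhibits TORC1, the kinase complex that couples growth to nitrogen supply. In the anchor-away method the cells lack Fpr1 and carry a TOR1 allele that the complex cannot bind, so that the drug serves only to join an FRB-tagged protein to an anchor that holds FKBP12. A strain without the FRB tag shows what remains of the drug's action. Nab3 works with Nrd1 and the helicase Sen1 in the NNS complex, which ends transcription of snoRNAs and of cryptic unstable transcripts (CUTs) and hands these to the nuclear exosome. SUTs and XUTs are further classes of non-coding Pol II transcripts, XUTs being those that the cytoplasmic exonuclease Xrn1 removes.

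The libraries held 698912 reads at 0 min and 826500 at 14 min with rapamycin, against 836241 and 431659 without, so the library without rapamycin at 14 min was the shallowest. The shares of rRNA moved in opposite ways at the 2 times. They were 9.98% at 0 min and 10.5% at 14 min with rapamycin, against 6.06% and 14.3% without. Reads on protein-coding genes made up 68.6% and 66.0% with rapamycin, against 71.6% and 59.9% without. For the rRNA share at 0 min the exact binomial 95% interval was 9.91 to 10.0% with rapamycin and 6.01 to 6.11% without, which covers counting error only. With 1 library on each side no difference here has a replicate check.

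The strain label, a haploid α strain with FPR1 deleted, was checked against marker genes, and these went against it in all 4 libraries. The 4 α-specific genes of the marker list, which an α cell transcribes, together took 158.5 and 58.7 RPM (reads scaled to the total of protein-coding reads) with rapamycin at 0 and 14 min, against 155.3 and 58.0 RPM without. In the rapamycin-treated Nab3-FRB libraries at 0 min they took 1549.6 and 1854.2 RPM. The α pheromone gene MF(ALPHA)1 had 3 and 1 reads with rapamycin and 2 and 0 without, and 3 of the 4 markers did not reach 20 reads at both times. The 7 a-specific genes were at 98.0 and 113.7 RPM with rapamycin and 86.8 and 104.4 without, against 2484.8 to 3087.7 in the Pol II libraries of the other time-courses at 0 min. Another list, 6 genes transcribed in haploid cells of either mating type (chosen after values were seen), was at 116.8 and 77.0 RPM with rapamycin and 61.8 and 38.7 without, against 388.8 to 984.4 in the rapamycin-treated Nab3-FRB libraries. Its member STE18 had no read in any of the 4. FPR1, deleted by the label, had 78 and 179 reads with rapamycin and 92 and 86 without. At 0 min this was 162.67 RPM with rapamycin and 153.64 RPM without, against 42.54 and 93.1 RPM in the rapamycin-treated Nab3-FRB libraries and 161.61 to 204.15 RPM in the Pol II libraries of the other time-courses. At 14 min FPR1 was at 328.36 RPM with rapamycin and 332.48 RPM without. The Nab3-FRB libraries of time-course 2 had 158.85 and 237.63 RPM at that time, and the rapamycin library of time-course 1 had 131.29 RPM at 18 min. Reads on FPR1 were thus not particular to the untagged libraries. The files do not show where in the FPR1 feature these reads lie. Whether these cells lack Fpr1, which a comparison of the drug alone takes as given, was not tested. The α and a lists were at like levels with and without the drug, whereas the haploid-specific list was higher with rapamycin at both times, on 56 reads against 37 at 0 min and 42 against 10 at 14 min. Within it STE5 had 32 reads with rapamycin against 16 without at 0 min, and GPA1 16 against 1 at 14 min. The part of these differences in the results below was not tested.

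Few features differed 2-fold with rapamycin at both times. At 0 min, 46 features were at least 2-fold higher (0.705% of those tested) and 66 at least 2-fold lower (1.01%), 112 in all (1.72%). At 14 min, 104 were higher (1.59%) and 105 lower (1.61%), 209 in all (3.2%). The share of these that were higher was 41.1% at 0 min and 49.8% at 14 min, and at 14 min it was 37.2% with FPKM as deposited, 79.4% with equal FPKM sums and 29.6% with scaling to protein-coding reads. Ratios are log2(FPKM + 1) with rapamycin minus the same without, set to a median of 0 at each time. The bounds given with a ratio are exact binomial 95% bounds from the reads alone, with no pseudocount. Features past 2-fold in the same direction at both times were called. A single feature was called higher (0.0153%) and 8 lower (0.123%), 9 in all (0.138%), and 1 feature was past 2-fold in opposite directions (0.0153%). The log2 ratios had an SD over features of 0.36 at 0 min and 0.44 at 14 min. Across the 6526 features the ratios of the 2 times had a Pearson r of 0.10, and 0.17 over the 1972 features with at least 100 reads at each time. This r is a description across features that share the same 4 libraries.

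**Figure D1:**
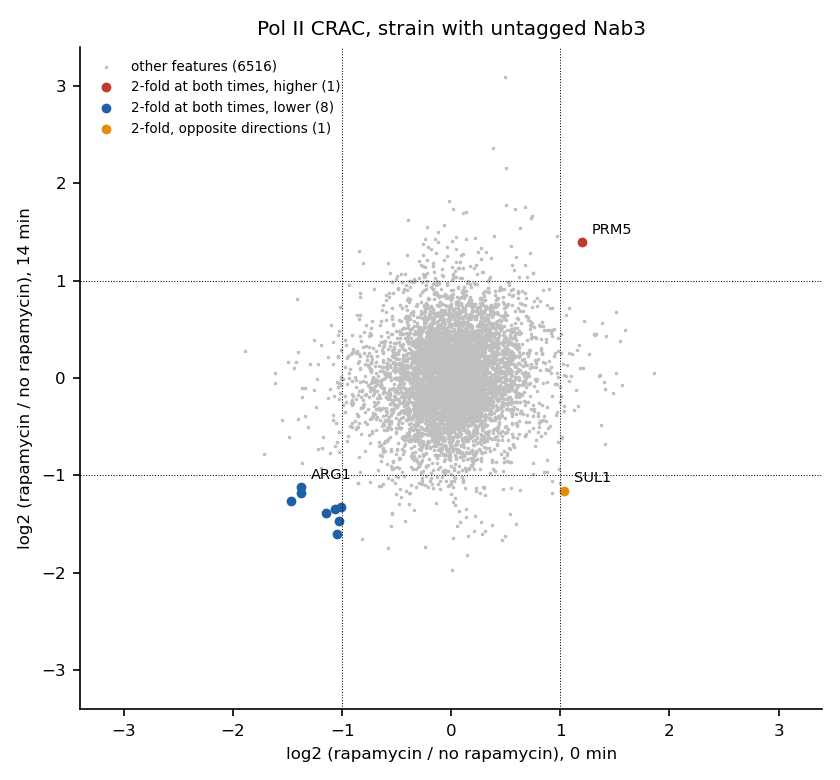
Each point is 1 of the 6526 tested features, with its log2 ratio of rapamycin over no rapamycin at 0 min on the x axis and at 14 min on the y axis, and dotted lines mark 2-fold. PRM5 lies alone beyond 2-fold higher at both times, 8 features including ARG1 lie beyond 2-fold lower, and SUL1 lies beyond 2-fold in opposite directions.

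Both called protein-coding genes can be read library by library. PRM5 (YIL117C, chromosome IX, 140498 to 141716, minus strand, R64) encodes a membrane protein that is induced by pheromone and by cell wall stress signalling. It had an FPKM of 15.1 at 0 min and 28.5 at 14 min with rapamycin, against 6.21 and 10.7 without. These rest on 28 and 70 reads with rapamycin and 14 and 13 without. Both rapamycin libraries were above both others. The log2 ratio was 1.195 at 0 min (0.34 to 2.36) and 1.40 at 14 min (0.61 to 2.46).

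ARG1 (YOL058W, chromosome XV, 219084 to 220643, plus strand) encodes argininosuccinate synthetase, an enzyme of arginine synthesis. Its FPKM was 51.3 at 0 min and 35.3 at 14 min with rapamycin, against 139 and 81.8 without, from 122 and 111 reads against 400 and 127. Both rapamycin libraries were below both others. The log2 ratio was -1.38 (-1.70 to -1.10) at 0 min and -1.12 (-1.53 to -0.77) at 14 min. With each library scaled to the same FPKM sum, the ratio at 14 min was -0.96 and ARG1 was no longer called. The antisense transcript XUT_15R-116 over ARG1 had 18 and 19 reads with rapamycin and 17 and 7 without.

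The other 7 called features are non-coding transcripts, all lower with rapamycin, and they come from 5 loci because annotations overlap. CUT558 (chromosome V, 294287 to 294919, minus strand) starts within the first bases of the ARG5,6 feature and runs away from it, antisense to the end of MOT2. It had 33 and 21 reads with rapamycin at 0 and 14 min, against 116 and 27 without, and log2 ratios of -1.47 (-2.10 to -0.93) and -1.26 (-2.21 to -0.44). ARG5,6 itself, which encodes 2 enzymes of arginine synthesis as 1 precursor, had ratios of -1.24 and -0.30. The coding gene and its divergent CUT were thus both past 2-fold lower at 0 min, and only the CUT at 14 min.

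SUT803 and XUT_16R-9 (chromosome XVI, minus strand, 23909 to 24701 and 23721 to 24674) share most of their length and their reads, and lie antisense to SAM3, the S-adenosylmethionine permease gene. SUT803 had 54 and 18 reads with rapamycin, against 141 and 30 without, with ratios of -1.05 and -1.60. XUT_16R-9 had ratios of -1.14 and -1.39. SAM3 on the other strand had 438 and 520 reads with rapamycin and 446 and 270 without, with ratios of 0.29 and -0.01, so the antisense transcript was lower where its sense partner was not.

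The last 3 loci hold short or weakly covered CUTs. CUT474 and XUT_4R-55 share 1 locus on chromosome IV (minus strand, 132316 to 132644 and 132001 to 132724), where CUT474 overlaps no tested feature other than the XUT. XUT_4R-55 had 45 and 13 reads with rapamycin, against 116 and 20 without, with ratios of -1.03 (-1.58 to -0.54) and -1.47 (-2.70 to -0.49). CUT474 had ratios of -1.07 and -1.35. CUT870 (chromosome XV, 953890 to 954082, minus strand), antisense to the end of the KRE5 feature, had 14 and 10 reads with rapamycin and 46 and 12 without, with ratios of -1.38 and -1.18. CUT_COR161CTs2 (chromosome XV, 638443 to 638671, minus strand) lies within PNS1 on its strand, and had 7 and 9 reads against 18 and 12. For these 2 CUTs the counting bounds at 14 min include 0 (up to 0.12 for CUT870 and 0.004 for CUT_COR161CTs2), and with a bound that must exclude 0 at both times 7 features stayed past the threshold. CUT474 and CUT_COR161CTs2 fall outside the naming rule, which takes the 5 lowest non-coding features, and are named because they complete the 9.

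**Figure D2:**
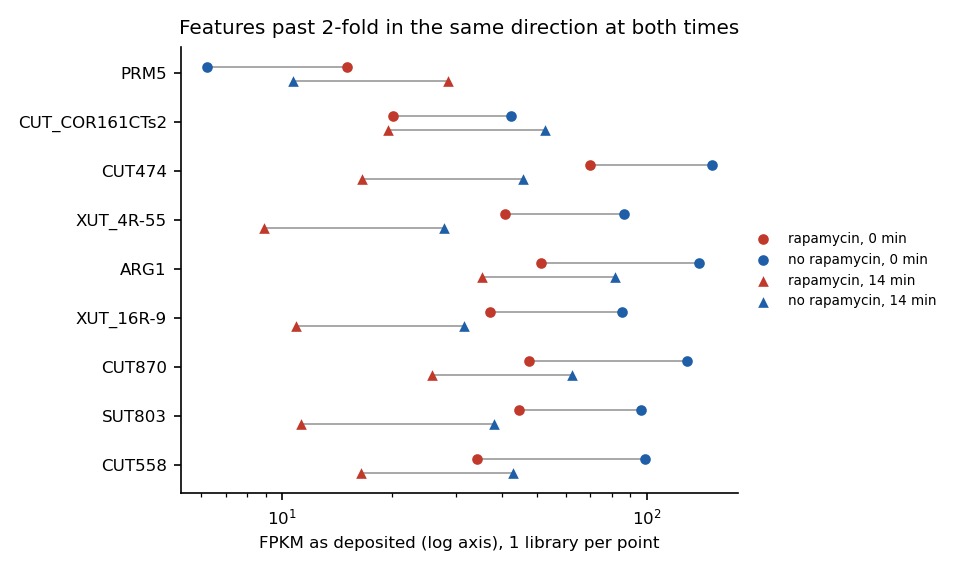
FPKM as deposited (log axis) of the 9 called features in each library, red for rapamycin and blue for no rapamycin, circles for 0 min and triangles for 14 min. PRM5 has its rapamycin points to the right at both times, and the 8 others have theirs to the left.

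CUT474 is shown as an example of the RNA class that the NNS complex ends. The stretch is the first 300 bases of the transcript, 5′ to 3′, read from the minus strand of chrIV:132345-132644 (R64), and capitals mark the Nab3 core motifs TCTT and CTTG, searched on the transcribed strand only, as RNA motifs, with overlaps counted. It holds 1 TCTT and 2 CTTG.
CUT474: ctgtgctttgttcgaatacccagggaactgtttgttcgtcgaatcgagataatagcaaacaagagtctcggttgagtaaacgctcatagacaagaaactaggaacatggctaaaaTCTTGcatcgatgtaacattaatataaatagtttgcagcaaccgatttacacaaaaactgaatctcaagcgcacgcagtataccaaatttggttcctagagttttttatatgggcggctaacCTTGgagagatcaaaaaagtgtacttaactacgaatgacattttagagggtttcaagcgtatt
Both motifs also stand in the first 300 bases of 86.0% of the 838 CUTs of at least that length, so this is a description of the class.

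Beside the threshold stood YPS3, which encodes a cell-surface aspartic protease. It had 35 and 217 reads with rapamycin, against 21 and 40 without, and ratios of 0.97 and 1.45, just short of a call. CUT869, next to CUT870 on the same strand, had ratios of -1.195 and -0.93. Just inside the threshold were CUT_COR161CTs2, at -1.01 and -1.32, and XUT_4R-55. At 1.5-fold, 305 features were higher (4.67%) and 338 lower (5.18%) at 0 min, 643 in all (9.85%), and 563 were higher (8.63%) and 518 lower (7.94%) at 14 min, 1081 in all (16.6%). By the same threshold 47 features were higher at both times (0.72%), 47 lower (0.72%), 94 in all (1.44%), and 39 in opposite directions (0.598%). Among those higher were 3 more genes of the cell surface, chosen for naming after values were seen. CWP1, a cell wall mannoprotein gene, had ratios of 0.68 and 1.75, MTL1, which encodes a cell wall sensor, 0.61 and 0.87, and CHS1, which encodes a chitin synthase, 0.63 and 0.69. No list of cell surface genes was compared. In the Nab3-FRB libraries of time-course 2 at 14 min these genes lay below 0. CWP1 was at -0.57, MTL1 at -0.88, CHS1 at -0.91, PRM5 at -0.85 and YPS3 at -2.00, the last on 6 reads against 27. HIS3 and the mitochondrial ornithine carrier gene ORT1 were among those lower, at -0.84 and -0.81, and at -0.59 and -0.65.

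Genes of amino acid synthesis under the activator Gcn4 were mostly lower at 0 min. Of the 29 tested of 31 members, 3 had a ratio above 0 at 0 min and the median was -0.37, where the median of all features is 0 by construction. At 14 min 13 were above 0 and the median was -0.10, which turned to 0.06 with equal FPKM sums. ARG1 and ARG5,6 were among the members past 2-fold lower at 0 min, and ARG1 and LYS20 were past it at 14 min, so ARG1 was the sole shared member.

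ARG1, ARG5,6 and ARG4, all genes of arginine synthesis, were among the lowest tested values of this list at 0 min. ARG3, another of the pathway, had 24 and 3 reads with rapamycin and 125 and 5 without, too few at 14 min to be tested. ARG4, which encodes argininosuccinate lyase, had ratios of -0.97 (-1.20 to -0.75) and -0.24. CPA1 and ARG8 were within 2-fold at both times, at -0.43 and 0.52 and at -0.27 and -0.10. LYS20, a homocitrate synthase gene of lysine synthesis, had ratios of -0.43 and -1.001 (-1.46 to -0.60).

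Gcn4 binds a site with the core TGACTC. This core, searched on both strands in the 250 bases before the feature start, was found for 20 of the 31 members (64.5%) and for 6.99% of all 6692 protein-coding features. The list holds genes under Gcn4, so its higher share was in part fixed by that choice, and is no test. The sites before ARG1 and ARG4 are shown with 12 bases on each side, because these genes were among the lowest at 0 min and hold the core. Each line is read 5′ to 3′ on the strand of its gene, with the core or its reverse complement in capitals.
ARG1, chrXV:218854-218883, plus strand: gtgattttttagTGACTCatgtcgcatttg
ARG1, chrXV:218925-218954, plus strand: tgccgtatggaaGAGTCAtttaaaggcagg
ARG4, chrVIII:141564-141593, minus strand: ttagtagatgaaTGACTCactttttggata
No such core stands in the same window of ARG5,6, and a match of letters does not show that a site is bound.

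Few of the genes that respond to TORC1 were past 2-fold, as was so of all features, of which 1.72% were past it at 0 min and 3.2% at 14 min. All 137 ribosomal protein genes were tested and none was past 2-fold at either time, with medians of -0.04 and -0.12, the second of which turned to 0.04 with equal FPKM sums. Of the 99 ribosome assembly genes 39 were tested, with medians of -0.04 and -0.14. None of them was past 2-fold at 0 min, and at 14 min 2 were higher (1.59% of all features) and 1 lower (1.61%). The 14 genes of TORC1 and its effectors had medians of 0.01 and 0.05 and none was past 2-fold. TOR1 itself had ratios of 0.03 and -0.20, TOR2 0.27 and 0.03, KOG1 -0.08 and 0.65, LST8 -0.17 and 0.21 and TCO89 -0.35 and -0.40. These are the 2 TOR kinases and subunits of TORC1, and the next are its effectors. SCH9 was at 0.06 and 0.01, NPR1 at -0.24 and 0.71, SIT4 at 0.04 and -0.03, TAP42 at 0.13 and -0.34, RRD1 at -0.54 and 0.27 and RRD2 at 0.00 and 0.33. FPR1 was at 0.08 and 0.11.

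Nitrogen catabolite repression keeps genes for poor nitrogen sources off through TORC1 and the GATA factors Gln3 and Gat1. The 17 tested of 23 members had medians of 0.10 and 0.20. DAL3, an allantoin pathway gene, was past 2-fold at 0 min on 14 reads with rapamycin against 6 without, and the allantoate permease gene DAL5 at 14 min on 107 against 21 (1.33, 0.71 to 2.15). Neither was past 2-fold at the other time. GAP1, the general amino acid permease gene, was at 0.22 and 0.20, GLN3 at 0.01 and 0.07 and GAT1 at -0.15 and -0.47.

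The retrograde response, which links mitochondria to nuclear transcription and is held down by TORC1, gave the highest median at 0 min among lists with more than 1 tested member. All 7 members had a ratio above 0 at 0 min, with a median of 0.52, and 6 of 7 at 14 min, with a median of 0.28. CIT2, which encodes the peroxisomal citrate synthase, had 1014 reads with rapamycin at 0 min against 566 without (1.16, 1.01 to 1.31), and 1716 against 729 at 14 min (0.28, 0.16 to 0.41). DLD3, a D-lactate dehydrogenase gene, had 638 against 426 at 0 min (0.90, 0.72 to 1.08) and a ratio of 0.09 at 14 min. CIT2 was thus past 2-fold at 0 min only, in glucose, and DLD3 at neither time.

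Stress lists had higher medians at 14 min than at 0 min. None of the 17 heat shock genes was past 2-fold, where 1.72% of all features were at 0 min and 3.2% at 14 min. A ratio above 0 was seen for 16 of them at 14 min and 13 at 0 min, with medians of 0.40 and 0.12. Of the 4595 protein-coding features tested, 2536 were above 0 at 14 min and 2336 at 0 min. SSA4, an inducible Hsp70 gene, had 2286 reads with rapamycin against 674 without at 14 min (0.81, 0.69 to 0.94). Of the 28 general stress genes under Msn2 and Msn4, the 17 tested had medians of 0.11 and 0.35, none past 2-fold. The others had too few reads at 0 min to be tested. Of these, HXK1 had 704 reads with rapamycin at 14 min against 122 without (1.56, 1.30 to 1.87). HSP26 had 470 against 87 (1.47, 1.15 to 1.83) and HSP12 29 against 6 (1.25, 0.03 to 2.88). CTT1, CYC7, SOL4 and USV1, also untested, were below 0 at 14 min. HSP42, SSA4 and HSP104 belong to both lists.

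Among the hexose transporters and glucose-repressed genes, list medians were below 0 before the shift and above 0 after it. Cells turn on many of these genes when glucose runs out, but not all. Without rapamycin, HXT1 fell from 137.6 FPKM at 0 min to 21.7 at 14 min. The 9 tested of 19 transporter genes had medians of -0.12 and 0.64, and the 9 tested of 16 glucose-repressed genes, some in both lists, of -0.12 and 0.45. HXT7, a high-affinity transporter gene, had 803 reads with rapamycin at 14 min against 200 without (1.047, 0.83 to 1.28), and HXT4 234 against 57 (1.06, 0.66 to 1.53). HXT6 is nearly identical to HXT7 in sequence, so that reads of the pair may be shared out between them. SUC2, the invertase gene, had 108 reads against 21 at 14 min (1.34, 0.73 to 2.16) and a ratio of -0.04 at 0 min. None of the 3 was past 2-fold at 0 min, and none was called.

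**Figure D3:**
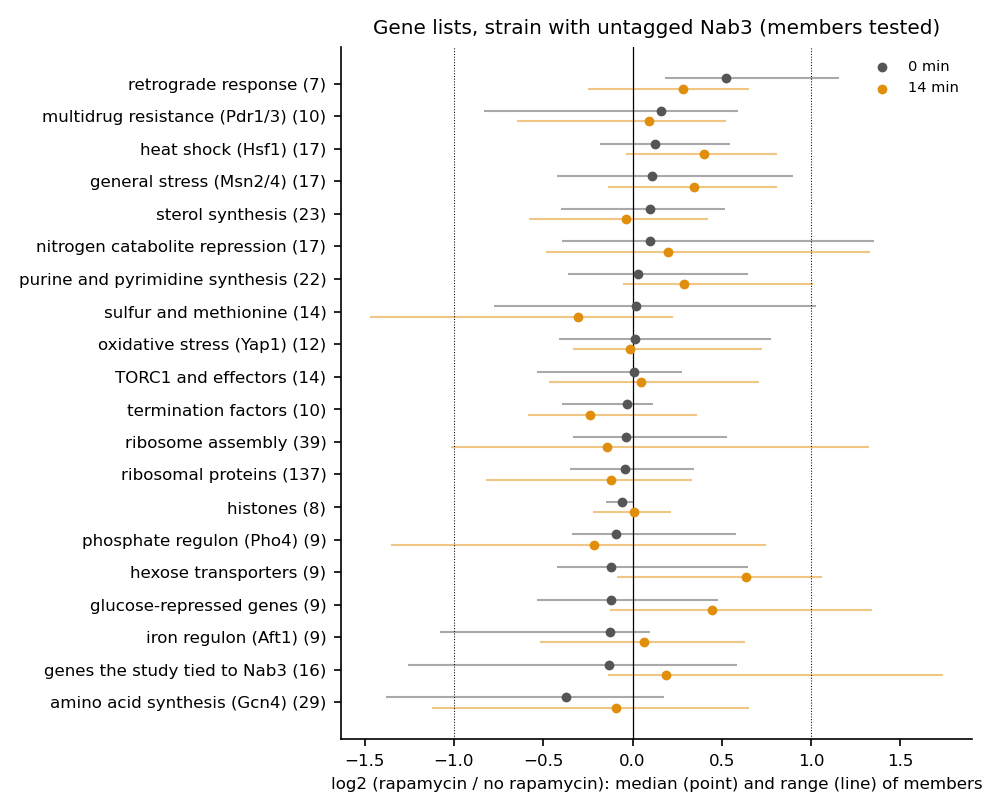
Median (point) and range (line) of the log2 ratio of rapamycin over no rapamycin of the tested members of each list, grey for 0 min and orange for 14 min, with dotted lines at 2-fold and the number of members in parentheses. The retrograde response lies furthest to the right and amino acid synthesis furthest to the left at 0 min, and hexose transporters lie furthest to the right at 14 min.

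The remaining lists with more than 1 tested member had medians within 0.31 of 0 at both times. They were multidrug resistance genes (0.16 and 0.09), genes of the Yap1 response (0.02 and -0.01), sterol synthesis (0.10 and -0.04), purine and pyrimidine synthesis (0.03 and 0.29), the phosphate regulon (-0.10 and -0.21), the iron regulon (-0.12 and 0.07), histones (-0.06 and 0.01) and sulfur and methionine genes (0.02 and -0.31). Of the 6 galactose genes 1 was tested. No member of these lists was called.

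The feature past 2-fold in opposite directions was SUL1, a sulfate permease gene of the sulfur list. It had 18 reads with rapamycin at 0 min against 8 without, and 11 against 17 at 14 min. The ratios were 1.03 (0.21 to 2.90) and -1.16 (-2.82 to -0.40). The next 4 by size were YGR153W (1.00 and -1.08), CUT_CBL093CD3 (-0.94 and 0.96), CUT_CtP(AGG)CTa1 (0.98 and -0.93) and SUT097 (0.92 and -1.18), each with at most 24 reads in any library.

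By RNA class, counts of stable non-coding RNAs past 2-fold are given beside the 1.72% of all features at 0 min and 3.2% at 14 min. The 77 snoRNAs were all tested and none was past 2-fold, with medians of 0.15 and -0.23, and the 289 tested tRNAs had medians of -0.05 and -0.28, with 2 higher and 4 lower past 2-fold at 0 min and 1 lower at 14 min. Their shares of the reads were 3.03% and 6.25% for tRNA with rapamycin, against 3.21% and 7.69% without. The 606 tested CUTs had medians of -0.06 and -0.10, with 10 higher and 23 lower past 2-fold at 0 min (0.705% and 1.01% of all features) and 19 higher and 33 lower at 14 min (1.59% and 1.61%). The 434 XUTs had medians of 0.00 and -0.03 and the 297 SUTs of -0.03 and -0.01. Calls of CUTs were 4 of 606, all lower, against 8 lower calls among all 6526.

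None of the 10 transcription termination factors found by symbol was past 2-fold, beside 1.72% of all features at 0 min and 3.2% at 14 min, so the count does not set them apart. They had medians of -0.03 and -0.24. NAB3 had 152 and 245 reads with rapamycin and 223 and 98 without (ratios of -0.23 and 0.36), and NRD1 380 and 149 against 439 and 61 (0.11 and 0.33). SEN1 was at -0.03 and 0.00, PCF11 at -0.31 and -0.24, RRP6 at 0.11 and -0.41, MTR4 at -0.03 and -0.24, AIR2 at 0.06 and -0.58, NAB2 at 0.10 and -0.50, HRP1 at -0.05 and -0.24 and GLC7 at -0.39 and 0.12. Of the genes that define the strain, PMA1, the anchor by the label, had ratios of -0.02 and 0.23, RPL13A -0.04 and -0.75, RPO21 0.05 and 0.31 and TRP1 0.18 and -0.42. The mating genes tested were SAG1 (0.21 and 0.28) and STE6 (-0.02 and 0.37). The others, MF(ALPHA)1, MF(ALPHA)2, STE3, MFA1, MFA2, STE2, AGA2, BAR1 and ASG7, had at most 27 reads in any library.

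Genes that the study tied to Nab3, some of them as controls, were read in the untagged strain as well. The study put the selection of FLX1, HEM4, TRS31 and SEN2 down to snoRNA read-through. LST8, GLK1 and YBR085C-A were its negative controls. It still found a change in LST8 mRNA on Nab3 depletion, and faster induction of YBR085C-A with mutated Nab3 and Nrd1 motifs. Of the 16, 15 were within 2-fold at each time, where 1.72% and 3.2% of all features were past it. PIC2, a mitochondrial carrier gene, was lower at 0 min on 11 reads against 36 (-1.26, -2.52 to -0.39) and had 84 against 33 at 14 min (0.39). SER3, a gene of serine synthesis, was higher at 14 min on 246 reads with rapamycin against 37 without (1.74, 1.28 to 2.32). It had 323 against 268 at 0 min (0.58, 0.35 to 0.83), and so was above 0 at both times but not called. SRG1, the non-coding RNA transcribed across the SER3 promoter, which is known to hold SER3 down, had 107 and 95 reads with rapamycin against 196 and 67 without. Its ratios were -0.55 (-0.91 to -0.21) and -0.44 (-0.91 to 0.03), on the other side of 0 from those of SER3. The features of SRG1 and SER3 overlap at their ends on 1 strand, and SRG1 was chosen after values were seen.

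The same genes in the Nab3-FRB strain are given beside these, with no test, since those tables were scaled separately. Of the Nab3-FRB pairs, the libraries without rapamycin of time-course 1 went against their label. At 0 min that library had 61 reads of the a-pheromone gene MFA1, 2 of LEU2, 1 of URA3 and none of MET17, where its rapamycin partner had 0, 67, 19 and 44. The pair of time-course 2 at 14 min had no such split, with 0 reads of MFA1 in both libraries and 162 against 197 of LEU2. In this pair, 464 of 4499 features were at least 2-fold higher with rapamycin (10.3%) and 389 lower (8.65%), and the SD of the ratio was 0.89, in shallower libraries than those of the untagged strain. Of the 16 genes 7 were at least 2-fold higher and 1 lower. The study chose most of its Nab3-regulated genes by a Pol II rise with rapamycin in its Nab3-FRB data. A higher count among the 16 than among all features was thus in part fixed by that choice, and is no test.

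HEM4, a gene of haem synthesis, had ratios of -0.50 and 0.00 in the untagged strain, against 2.35 with Nab3-FRB on 38 reads against 6. TRS31, a gene of the TRAPP vesicle complex, had -0.26 and 0.05 against 2.14, and RHO5, a small GTPase gene, -0.49 and 0.27 against 2.21. SEN2, a tRNA splicing endonuclease gene, had 0.18 and -0.01 against 1.38. All 4 were thus within 2-fold at both times in the untagged strain and past 2-fold higher with Nab3-FRB. FLX1, a mitochondrial FAD carrier gene, had -0.28 and 0.78 against 2.13, PIC2 1.054 and NRD1 1.001 with Nab3-FRB. SER3 was at 0.58 and 1.74 untagged against 0.80 with Nab3-FRB in the time-course 2 pair, and at 1.42 in the doubtful time-course 1 pair at 0 min, on 87 reads against 35. MAL33 was at 0.10 and -0.04 untagged against 0.85, IMD3 at 0.14 and 0.01 against 0.56, and GRE3 at 0.05 and -0.14 against -0.05. The last 5 were URA8 (-0.14 and 0.23 against -0.15), ENO1 (-0.14 and 0.13 against -0.26), GLK1 (-0.13 and 0.36 against 0.35), LST8 (-0.76 with Nab3-FRB) and YBR085C-A (-0.06 and 0.17 against -1.03). With the doubtful libraries of time-course 1, 10 of 15 genes were at least 2-fold higher at 0 min, where 11.9% of all features were, and 5 of 15 at 18 min, where 20.4% were. The study's choice of genes by a rise with rapamycin in Nab3-FRB cells limits these counts too. In the time-course 2 pair ARG1 was at -0.36, on 14 reads against 17, and PRM5 at -0.85, on 12 against 21.

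**Figure D4:**
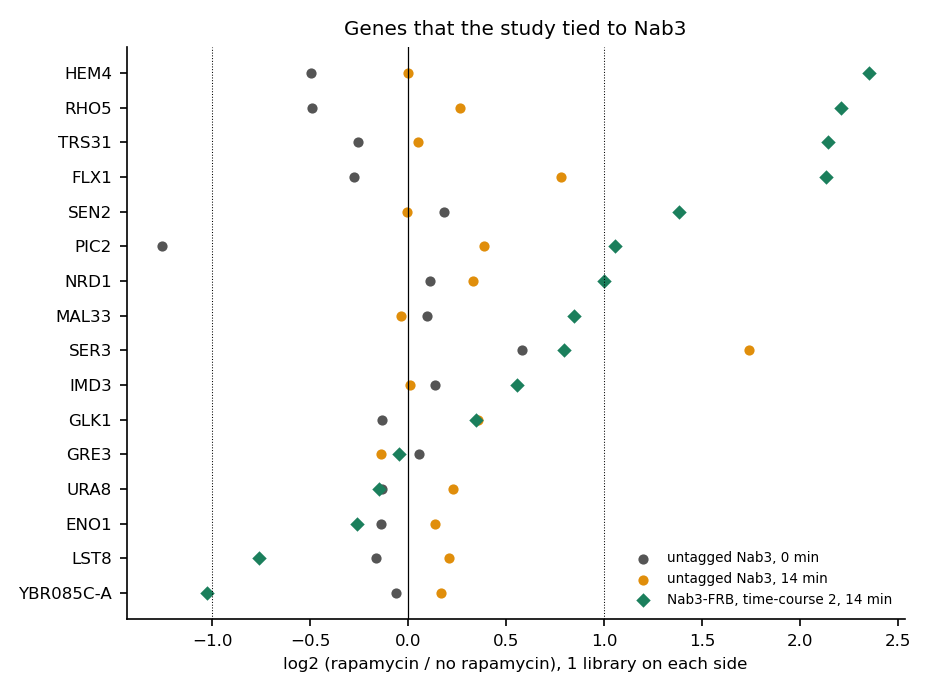
Log2 ratio of rapamycin over no rapamycin for the 16 genes tied to Nab3, as circles for the untagged strain (grey 0 min, orange 14 min) and diamonds for the Nab3-FRB strain in time-course 2 at 14 min, 1 library on each side of each ratio. Many of these genes were chosen by the study from its Nab3-FRB data. HEM4, RHO5, TRS31, FLX1, SEN2, PIC2 and NRD1 (the last just past the line) lie beyond 2-fold higher only as diamonds. PIC2 also lies beyond 2-fold lower as a grey circle. YBR085C-A lies beyond 2-fold lower only as a diamond, while SER3 lies beyond 2-fold only as an orange circle.

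Ty1 retrotransposon RNA, looked at after values were seen, was higher with rapamycin in the untagged strain at both times. Ty1 elements are copied through RNA, and each holds a gag frame and a longer gag-pol frame. The Ty1 gag-pol frames took 12140.1 RPM at 0 min and 11154.9 at 14 min with rapamycin, against 9191.5 and 7685.7 without, which is 1.32 and 1.45 times as much. All 29 frames had a ratio above 0 at both times, with medians of 0.38 and 0.65. Of the 31 tested gag frames 30 had a ratio above 0 at both times, with medians of 0.46 and 0.65. These medians were between 0.34 and 0.81 under every scaling and pseudocount tried, alternatives that were added after seeing the data.

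The Ty2 values lay nearer 0, and the difference between the families was not tested. The Ty2 gag-pol frames took 1522.5 and 1429.0 RPM with rapamycin, against 1474.6 and 1395.6 without, and the medians of the 10 frames were 0.06 and 0.08. By the methods, reads that fit several copies were placed at random, so copies of 1 family are not independent and single copies are uncertain. In the Nab3-FRB pair of time-course 2 at 14 min the ratio of gag-pol RPM was 1.83 for Ty1 and 2.45 for Ty2. In the time-course 1 pairs, whose libraries without rapamycin went against their label, it was 0.465 at 0 min and 0.613 at 18 min for Ty1 and 1.13 and 2.66 for Ty2. The level of Ty1 in the untagged strain was below that of every Nab3-FRB library used here, which had 16717.3 to 37137.3 RPM on the gag-pol frames, and 57958.3 and 44171.1 RPM in the 2 doubtful time-course 1 libraries without rapamycin. The haploid-specific genes given above were also lower in the untagged strain, and their part in the Ty1 values was not tested.

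**Figure D5:**
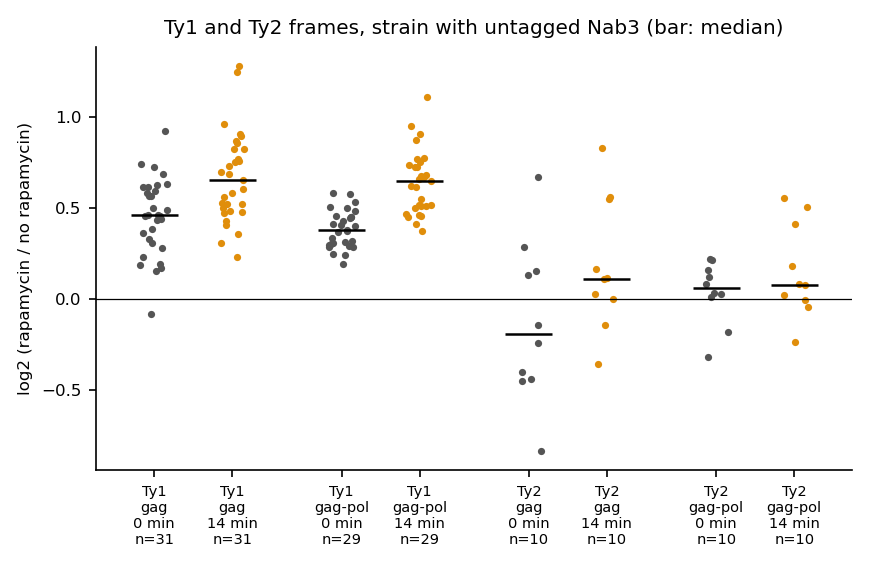
Log2 ratio of rapamycin over no rapamycin for each tested Ty1 and Ty2 frame in the untagged strain, grey for 0 min and orange for 14 min, with a bar at the median. All Ty1 gag-pol points lie above 0 at both times, while the Ty2 medians lie within 0.20 of 0.

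As an alternative over the 4 libraries, limma was fitted with time and rapamycin as factors, which leaves 1 residual degree of freedom. No feature passed an adjusted p of 0.05, with 516 at an unadjusted p under 0.05 (7.91%), and PRM5 and ARG1 both had an adjusted p of 0.0735, the smallest reached. This p measures only the spread between these 4 libraries.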

How the data were processed

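FPKM values of Pol II CRAC in 4 libraries were made by the authors, as deposited: reads were demultiplexed, trimmed, collapsed by random barcode, aligned to yeast R64 with Novoalign (version 2.0.4 by the submitters' processing notes), placed at random where they fit several sites, and counted per feature with pyReadCounters. Each low FPKM value times feature length was a whole multiple of 1 step per library (100% within 0.05 of a read), which gave the reads.

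Log2(FPKM + 1) ratios were centred on the median of features with at least 20 reads over both libraries of each time. Calls needed 2-fold in the same direction at both times. Depth was 431659 to 836241 reads. Bounds are exact binomial at 95% and cover counting error only. The members and lists were chosen with earlier results of these data known. Named were the called features (at most 12 coding and 5 non-coding in each direction), called list members, every member of the strain, termination, TORC1, mating and Nab3-tied lists, and the 5 strongest opposite changes. Others were chosen after values were seen.

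Alternatives were 3 other scalings, a pseudocount of 0.1, other filters, 1.5-fold, an interval criterion, limma, and leaving out multi-copy features. The routine was tested on simulated data. In the series, 3 value columns matched no sample label and were not used. One result is not reported here. The software was limma 3.58.1 in R 4.3.3, and pandas 2.3.3, numpy 2.4.6, scipy 1.17.1 and matplotlib 3.10.9 in Python 3.11.15.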

Additional observations from a re-analysis of the deposited data

Results flagged for a closer look

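SUL1 differed between the 2 times in the direction of its ratio, at 1.03 at 0 min and -1.16 at 14 min, on at most 18 reads in any library. The share of rRNA reads also moved in opposite ways, with a log2 ratio of rapamycin over no rapamycin of 0.72 at 0 min and -0.46 at 14 min. Neither difference between times was tested, because each time has 1 library per treatment.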

How the results depend on the processing

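The 9 shared calls numbered 7 to 12 under the other scalings, a pseudocount of 0.1, the interval criterion (7) and without multi-copy features. They became 231 with no filter on reads, 69 for features above 0 in every library, 94 at 1.5-fold, 1 (ARG1) with at least 100 reads at each time and 0 with limma. The 112 features past 2-fold at 0 min became 1112, 563, 643 and 12 in the first 4 of these, and the 209 at 14 min became 1825, 935, 1081 and 9. With equal FPKM sums the median of all features at 14 min moved to 0.149 and 79.4% of the calls at 14 min were higher, against 49.8% after centring. With scaling to protein-coding reads it moved to -0.127 and the share was 29.6%, and with FPKM as deposited it was 37.2%. So directions of small list medians at 14 min depend on scaling. The log2 ratios of class shares with and without rapamycin, with rRNA left out of the total, were -0.000 and 0.074 for protein-coding features at 0 and 14 min (main -0.062 and 0.138), -0.020 and -0.364 for tRNA (-0.082 and -0.300) and 0.156 and -0.293 for snoRNA (0.095 and -0.229). Log2 ratios of named features stayed within counting error in 612 cases and moved beyond it in 4 (CIT2, GLK1 and ENO1 at 14 min). No paired analysis was possible because the labels give these libraries no replicate number, and the limma fit paired the treatments by time only. Depth limits single features most at 14 min without rapamycin.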

Other observations

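PRM7, which encodes a pheromone-regulated protein, lay close to the threshold, with 126 and 274 reads with rapamycin at 0 and 14 min and 86 and 75 without, and log2 ratios of 0.84 and 0.90. STR3, a gene of methionine synthesis, had 10 reads with rapamycin at 14 min against 17 without (-1.47, -3.01 to -0.51), and PHM6 of the phosphate regulon 12 against 17 (-1.35, -2.65 to -0.30), while FIT2 of the iron regulon had 10 against 28 at 0 min (-1.08, -2.37 to -0.08). None of these 3 was past 2-fold at the other time. HSP104, a heat shock gene, differed more between times than between treatments, with 113 reads at 0 min and 3957 at 14 min with rapamycin, against 150 and 1497 without.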
